A study of Capra hircus and Bos taurus with 7 samples.

Results

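The microRNAs (miRNAs) of extracellular vesicles from a commercial bovine milk powder were set against those of goat milk powders. The bovine powder (Bos taurus) was represented by 1 library and the goat powders (Capra hircus) by 6, of which 3 came from whole powder (libraries A to C) and 3 from skimmed powder (libraries A to C). These 7 libraries are all that the series holds here, and all 364 mature miRNAs of the deposited tables were read in each. In every case the powder was dissolved in warm water and the vesicles were separated by size exclusion. The labels do not say whether the bovine powder was whole or skimmed, or which breeds, farms or lots stood behind any powder, and they do not say whether the letters A to C stand for separate packs, lots or repeat isolations. With a single bovine library there was no spread between bovine samples and no test was made. Species, product and library cannot be told apart in any difference given here.

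MicroRNAs are short RNAs that guide Argonaute proteins to mRNAs, which they recognise mainly through a stretch near the miRNA 5′ end called the seed, and the mRNAs are then repressed. Members of a family share their seed, while members of a cluster are cut from a shared transcript and may have unrelated seeds. Milk vesicles are shed largely by the mammary epithelium, and their miRNAs include epithelial ones such as the miR-200 family and miR-148a. Milk also holds leukocytes and other cells whose vesicles can carry miRNAs of their own.

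The bovine library held 5675489 estimated miRNA reads and the goat libraries 6561887 to 11963849. Levels were compared as counts-per-million (CPM), each miRNA's reads scaled to the total of its own library. At least 1 read was found for 224 miRNAs in the bovine library and for 247.5 ± 6.22 (SD, n = 6; range 238 to 254) in goat. The bovine library was also the shallowest, and at its depth the goat libraries would be expected to show 240.6 ± 6.82 miRNAs (range 233.1 to 250.8). At 10 reads or more the numbers were 148 in bovine and 202 to 213 in goat, so the bovine library lay below all 6 goat libraries by each of these counts. Its reads were held by fewer miRNAs: the 10 leading ones took 67.2% in bovine and 60.0% ± 1.42 (SD, n = 6; range 57.3% to 61.0%) in goat, a value above every goat library.

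A miRNA was described as higher in bovine when its bovine level was at least 2-fold over the goat mean and above all 6 goat libraries, and as lower when it was at least 2-fold under the goat mean and below all 6. This was read for the 125 miRNAs whose bovine level and goat mean averaged at least 100 CPM, which held 99.8% of the bovine reads and 99.46% to 99.54% of the reads of each goat library. Of the 125, 25 were higher (20.0%), 47 were lower (37.6%) and 53 were neither. By position alone, 43 lay above all 6 goat libraries (34.4%), 61 below all 6 (48.8%) and 21 within the goat range (16.8%). The median log2 fold of the 125 was -0.35. In reads, the 25 higher miRNAs took 25.2% of bovine and 9.72% of goat reads, while the 47 lower ones took 5.48% of bovine and 20.4% of goat reads. The directions of these shares follow from how the miRNAs were picked, and gains and losses must balance on a scale tied to totals. The 53 others took 69.1% and 69.4%.

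**Figure D1:**
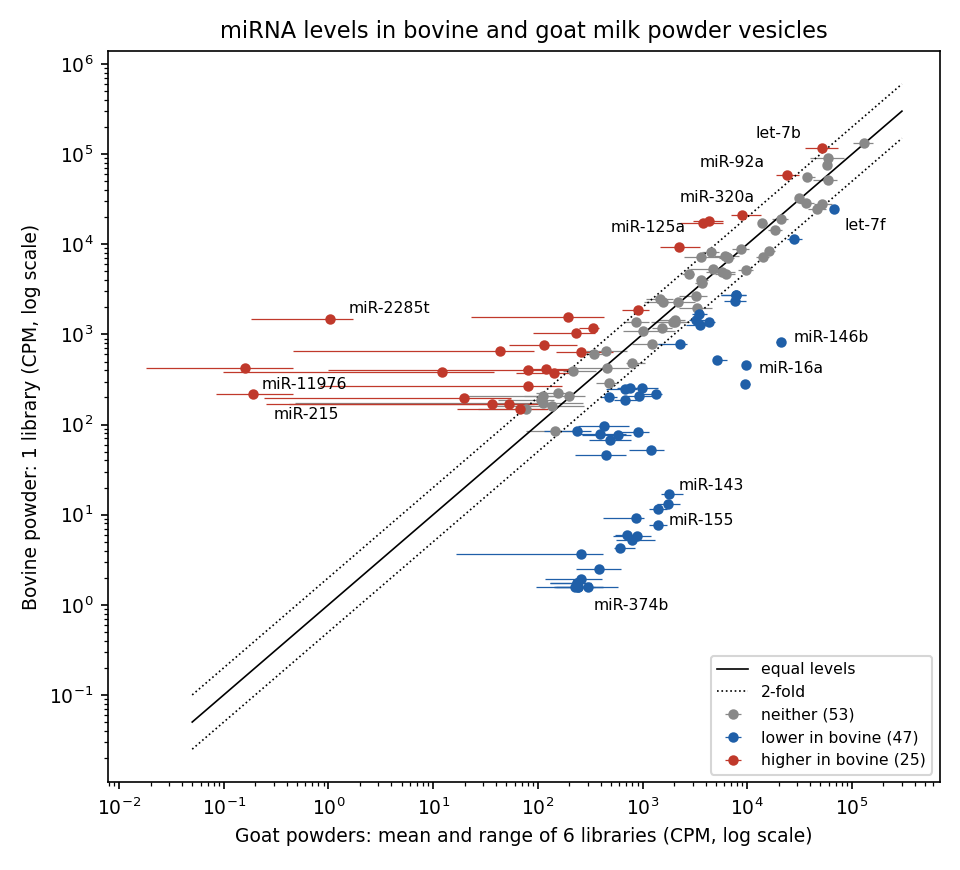
Level of each of 125 miRNAs in the bovine library (vertical axis, CPM, log scale) against the goat mean (horizontal axis, CPM, log scale), with horizontal lines for the range of the 6 goat libraries. Red points (25) are higher and blue points (47) lower in bovine, the solid line marks equal levels and the dotted lines 2-fold; a group of blue points between 1.59 and 16.8 CPM lies far under the line, apart from the others.

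The split between higher and lower depended on how libraries were scaled. CPM ties every level to the library's total, which in bovine is taken up more by the leading miRNAs. The cause of the differences between scalings was not tested. Scaling by trimmed means (TMM) raised the median log2 fold of the bovine library by 0.44 against CPM, and scaling by median of ratios raised it by 1.09. The counts were then 40 higher and 42 lower under TMM and 61 higher and 30 lower under median of ratios, so that higher miRNAs made up 34.7%, 48.8% and 67.0% of the calls under CPM, TMM and median of ratios. Leaving let-7a-5p and let-7b out of the totals, another alternative, gave 29 and 47 with a shift of 0.12. All 25 miRNAs called higher under CPM were called higher under these 3 scalings. Of the 47 called lower, 42 were lower under TMM and 30 under median of ratios. The members that lost the call under TMM were miR-375, miR-24-3p, miR-151-3p, miR-7 and miR-142-5p. Every fold below is on the CPM scale, and a fold near 1 is to be read beside the -0.35 median of all 125.

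Rank order across the 125 miRNAs was much closer among goat libraries than between the bovine and the goat libraries. Spearman's rho between the bovine and each goat library was 0.725 to 0.751 (6 pairs), against 0.973 to 0.990 between goat libraries (15 pairs). These are descriptions across miRNAs, which are not independent replicates. Reads held in common, the sum over miRNAs of the smaller share of each pair, were 71.6% to 77.3% between species and 82.8% to 94.3% within goat. Between 69 and 85 miRNAs differed at least 2-fold between the bovine and a goat library, and 12 to 25 between any pair of goat libraries. The entry limit of the 125 gave the bovine library the same weight as the goat mean, and each goat library less. A miRNA near absent from one species entered through the other and so had to differ between species. The gaps in rho and in the 2-fold counts follow in part from this limit, and how far was not tested. Measures of nearness to the goat powders differed: the mean rho was 0.739 to whole and 0.740 to skimmed, the mean of the reads in common was 74.6% with whole and 74.1% with skimmed, and 69, 74 and 76 miRNAs differed at least 2-fold from the whole libraries against 76, 79 and 85 from the skimmed ones.

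Of the bovine library's reads, 24.7% would have to be moved to other miRNAs to give the goat mean, and a few abundant miRNAs made up much of that. The share of let-7b, a repressor of growth-related mRNAs such as those of the RAS genes, was 11.6% in bovine and 5.14% in goat, the largest gain of all 364 at 6.42 percentage points. It was followed by miR-92a, a member of the miR-17 to miR-92 cluster known from proliferating cells and endothelium, at 5.86% against 2.39%. The next gains were those of miR-30a-5p (3.14 points) and miR-30d (1.84 points), of a family abundant in differentiated epithelia, and of the epithelial miR-200c (1.80 points). Together these 5 made up 67.4% of all gains. On the other side stood let-7f, a close relative of let-7b, at 2.46% in bovine and 6.78% in goat. Losses then came from miR-148a (-2.40 points) and its near-identical entry miR-148d (-2.20 points), the inflammation-induced miR-146b (-2.01 points) and the secretory miR-375 (-1.63 points). These 5 made up 50.8% of all losses, so the losses were spread over more miRNAs than the gains.

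**Figure D2:**
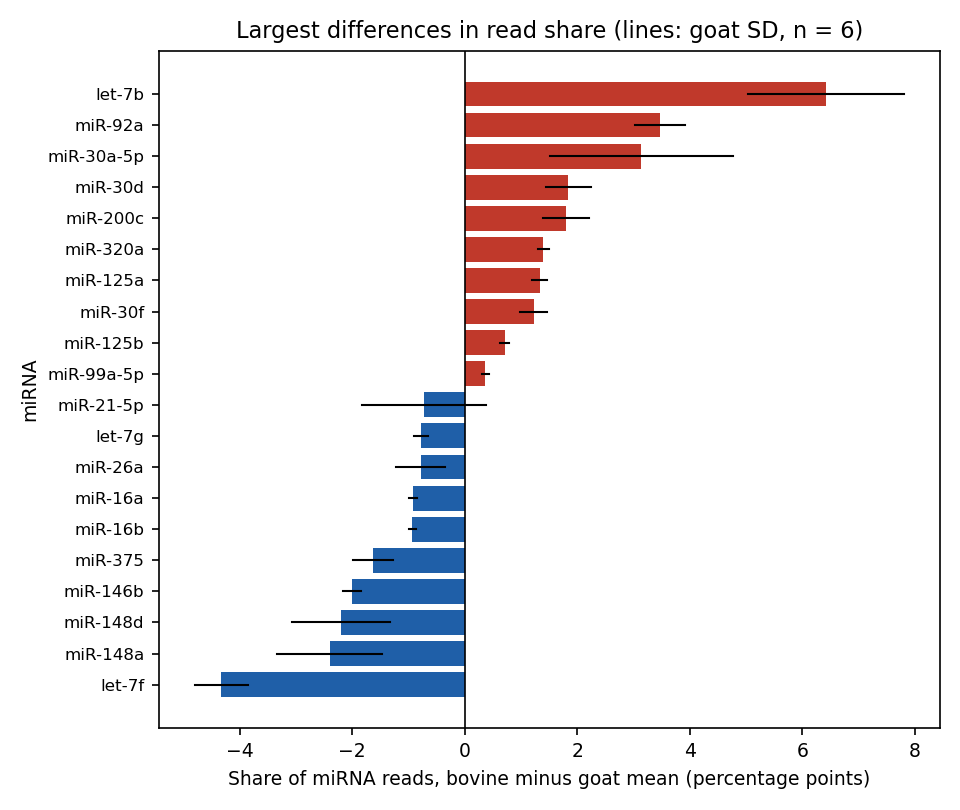
The 10 miRNAs with the largest gain and the 10 with the largest loss in share of miRNA reads, as the bovine share minus the goat mean in percentage points (horizontal axis); black lines span 1 SD of the 6 goat libraries on either side. The bar of let-7b reaches 6.42 points and that of let-7f -4.32 points, and the line of miR-21-5p crosses 0.

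Within the let-7 and miR-98 family, whose members share a seed and are best known as brakes on growth and stem cell programmes, the family as a whole took 29.4% of bovine reads against 28.3% ± 3.61 in goat (range 23.4% to 34.3%). The bovine value lay within the goat range, yet the make-up differed. Let-7b stood at 115600 CPM in bovine (95% Poisson interval 115321 to 115880) and at 35382, 47930.4 and 73732 CPM (lowest, median and highest) in goat, 2.25-fold over the goat mean. It gave 39.4% of the family's reads in bovine against 17.9% ± 2.74 in goat. Let-7f gave 8.38% of the family's reads in bovine against 24.1% ± 1.77 in goat, and let-7i 0.175% of the family's reads in bovine against 1.84% ± 0.323 in goat. The most abundant member, let-7a-5p, held its place at 45.1% of the family's reads in bovine against 46.0% ± 1.43 in goat. Of the 9 members averaging at least 100 CPM, let-7b was higher, let-7f, let-7i and miR-98 were lower, and 5 were neither (let-7a-5p, let-7c, let-7d, let-7e and let-7g), shares near the 20.0% higher and 37.6% lower of all 125. The family's median log2 fold was -0.50 beside -0.35 for all 125. Under median of ratios let-7a-5p, let-7c and let-7d also passed the rule as higher and let-7i alone as lower, while the shares within the family do not depend on the scaling.

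The miR-30 family, whose members are known for keeping epithelial cells differentiated, took 20.0% of bovine reads against 13.9% ± 1.38 in goat (range 12.3% to 15.5%), above every goat library. The difference rested on 3 of its members. Levels were 90679 CPM in bovine and 39793, 58341 and 83105 CPM in goat for miR-30a-5p, and 76585 and 52927, 58708 and 61896 CPM for miR-30d. Both lay above all goat libraries but under 2-fold. Only miR-30f passed the rule among the 6 members averaging at least 100 CPM (20.0% of all 125 were higher), at 21260.5 CPM against 6968, 8282 and 13524 CPM in goat, 2.36-fold over the goat mean. The other 3 were not above the goat range: miR-30c and miR-30e-5p lay within it, and miR-30b-5p stood below it at 1369 CPM against 1455 to 2789 CPM. The members of this family thus lay on both sides of the goat range.

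Epithelial markers were read to check the labelled source, milk. The list of miR-200 family members, miR-141, miR-429, miR-205, miR-182, miR-183, miR-96 and miR-375 took 11.2% of bovine reads against 10.9% ± 0.510 in goat (range 10.2% to 11.7%), with the bovine library inside the goat range. Of its 9 members averaging at least 100 CPM, 0 were higher, 1 was lower and 8 were neither, beside 20.0% higher and 37.6% lower over all 125, with a median log2 fold of 0.08. The entry under 100 CPM was miR-96, from the transcript of miR-182 and miR-183. It had 3 reads in bovine and 119, 591, 1 (whole A to C) and 3, 397, 700 (skimmed A to C) in goat, so that the bovine level, like that of whole C and skimmed A, was near absence. The abundant miR-200b, a repressor of the mesenchymal ZEB factors, was at 32904 CPM in bovine and 29891, 30989 and 32884 CPM in goat, a ratio of 1.05. Its relative miR-200c lay above the goat range at 55374 CPM against 33936 to 44203 CPM. The member that was lower was miR-375, a miRNA of islets and other secretory epithelia, at 11535 CPM in bovine and 23879, 27152 and 33519.8 CPM in goat. It was 2.42-fold lower, and the call was lost under TMM (log2 fold -0.83) and median of ratios (-0.18). Under TMM, miR-200c and miR-182 passed as higher, and under median of ratios 5 members did.

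Milk-typical miR-148a, a repressor of the DNA methyltransferase DNMT1, was at 28332 CPM in bovine and 43833, 49626 and 64637 CPM in goat. All goat libraries were above the bovine one, and the difference of 1.85-fold stayed under the 2-fold limit. The entries miR-148a and miR-148d kept a nearly constant ratio in every library, as did miR-26a and miR-26c. Their reads could have been split between near-identical names in the deposited counting, so the single values are uncertain. With its relatives, the miR-148 and miR-152 list took 5.31% of bovine reads against 9.98% ± 1.82 in goat (range 8.28% to 12.2%), and its summed level was 1.88-fold lower in bovine. That direction turned under median of ratios. Only miR-148b passed the rule, at 208 CPM in bovine and 698 to 1267 CPM in goat.

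The 25 miRNAs that were higher in bovine fell into a group nearly absent from goat, a group that varied widely among goat libraries, and a group abundant in both. The first held 3 miRNAs. For miR-2285t, of a large miRNA family found in ruminants, the bovine library held 8370 reads (1475 CPM) and the goat libraries 5, 12 and 11 (whole A to C) and 16, 2 and 12 (skimmed A to C). Scaled to depth and pooled over goat, the ratio was 1378 (95% interval 1065 to 1816). Next, miR-11976 had 2384 reads (420.1 CPM) in bovine and 0 to 3 in each goat library, 8 in all, a ratio of 2845 (95% interval 1442 to 6599). Whole A held 3 of the 8, and without it the log2 fold moved from 11.36 to 12.03. The third, miR-215, a relative of miR-192 known from gut and liver epithelium, had 1244 reads (219 CPM) in bovine and 1 to 4 in each goat library, a ratio of 1188 (95% interval 644 to 2483). Intervals here are exact for Poisson counts, and since PCR copies were not marked by molecular identifiers they cover counting error only. These 3 were the only ones of the 25 with more than 50-fold, and 5 had more than 10-fold.

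Some of the miRNAs that followed were present in certain goat libraries and nearly absent in others. An X-linked cluster that lies in introns of the chloride channel gene CLCN5 has 7 entries in the tables, and the 4 that averaged at least 100 CPM were higher (miR-500, miR-532, miR-362-5p and miR-660), beside 20.0% of all 125. Their calls held under all 3 other scalings. Of the 4, miR-500 had a goat mean of 12.2 CPM and so entered through bovine. For it a difference of at least 2-fold followed from the entry limit. For miR-500 the bovine level was 386 CPM, and goat had 33.8, 0.0986, 38.4 CPM in whole libraries A, B and C and 0.323, 0.121, 0.377 CPM in skimmed libraries A, B and C. All goat libraries were lower, but those of whole A and whole C set the goat mean, and the log2 fold of 4.98 (31.6-fold) became 5.62 without whole A and 5.79 without whole C. In miR-532 the levels were 754 CPM in bovine and 52.7, 91.5 and 239 CPM in goat, and in miR-660 1857 and 631, 943 and 1144 CPM. Here no goat library was near absent, and the folds were 6.65 and 2.03. The 7 entries together took 0.341% of bovine reads against 0.124% ± 0.0227 in goat (range 0.0856% to 0.148%). The 3 entries under 100 CPM were not higher: miR-362-3p, the other arm of a hairpin whose 5′ arm was 3.46-fold higher, had 4 reads in bovine and 102 to 1648 in each goat library, and miR-502a and miR-502b had 1 and 2 bovine reads.

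Other miRNAs varied among the goat libraries to different degrees. The HOX cluster miRNA miR-196a was at 648 CPM in bovine and at 0.457, 0.592, 49.9 CPM in whole libraries A, B and C and 92.7, 74.5, 42.0 CPM in skimmed libraries A, B and C, so that whole A and B were nearly without it. Likewise miR-1306, encoded in the DGCR8 transcript of the miRNA processing machinery, was at 198 CPM against 0.241, 7.21 and 55.9 CPM in goat. Its log2 fold of 3.32 became 3.97 without skimmed A. The 5′ arm miR-193a-5p reached 1547 CPM in bovine and 22.9, 217 and 427 CPM in goat, and miR-365-3p, known from brown fat differentiation, 170.3 and 0.251, 24.7 and 115 CPM. For miR-365-3p whole C alone was above 100 CPM, and the log2 fold of 2.23 became 3.05 without it. Of these, miR-193a-5p had at least 100 reads in every library. The level of miR-7859 was 402 CPM against 0.986, 62.1 and 204 CPM. In all 5 the bovine library was above every goat library.

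Abundant miRNAs that were higher in bovine were near absent from no goat library, although their levels also varied among the goat libraries. The largest such fold belonged to miR-125a, a relative of the worm developmental regulator lin-4, at 17047 CPM in bovine (interval 16939.7 to 17155) and 2271, 3575 and 5902 CPM in goat. It was 4.54-fold over the goat mean of 3751 ± 1373 CPM (SD, n = 6). Its relative miR-125b was 4.22-fold higher, at 9309 CPM against 1455, 2057 and 3516 CPM. Also in this group were miR-99a-5p (1.81-fold) and miR-99b (1.60-fold), which share transcripts with let-7 and miR-125 members. All 4 lay above all goat libraries, beside 34.4% of all 125. The entry under 100 CPM, miR-100, went the other way with a log2 fold of -0.89. Together with miR-100 the 4 took 3.59% of bovine reads against 1.13% ± 0.288 in goat (range 0.858% to 1.60%). The hairpin of miR-320a matures without the nuclease Drosha, and it was at 18289 CPM in bovine and 3001, 4449 and 5871 CPM in goat, 4.25-fold higher. Of the other entries of that route, miR-484 lay just below the goat range at 775 CPM against 784 to 1589 CPM, and miR-320b had 2 reads in bovine and 0 in each goat library, too few for a comparison. Cartilage-associated miR-140 was 4.44-fold higher at 1037 CPM against 89.0, 251 and 354 CPM.

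**Figure D3:**
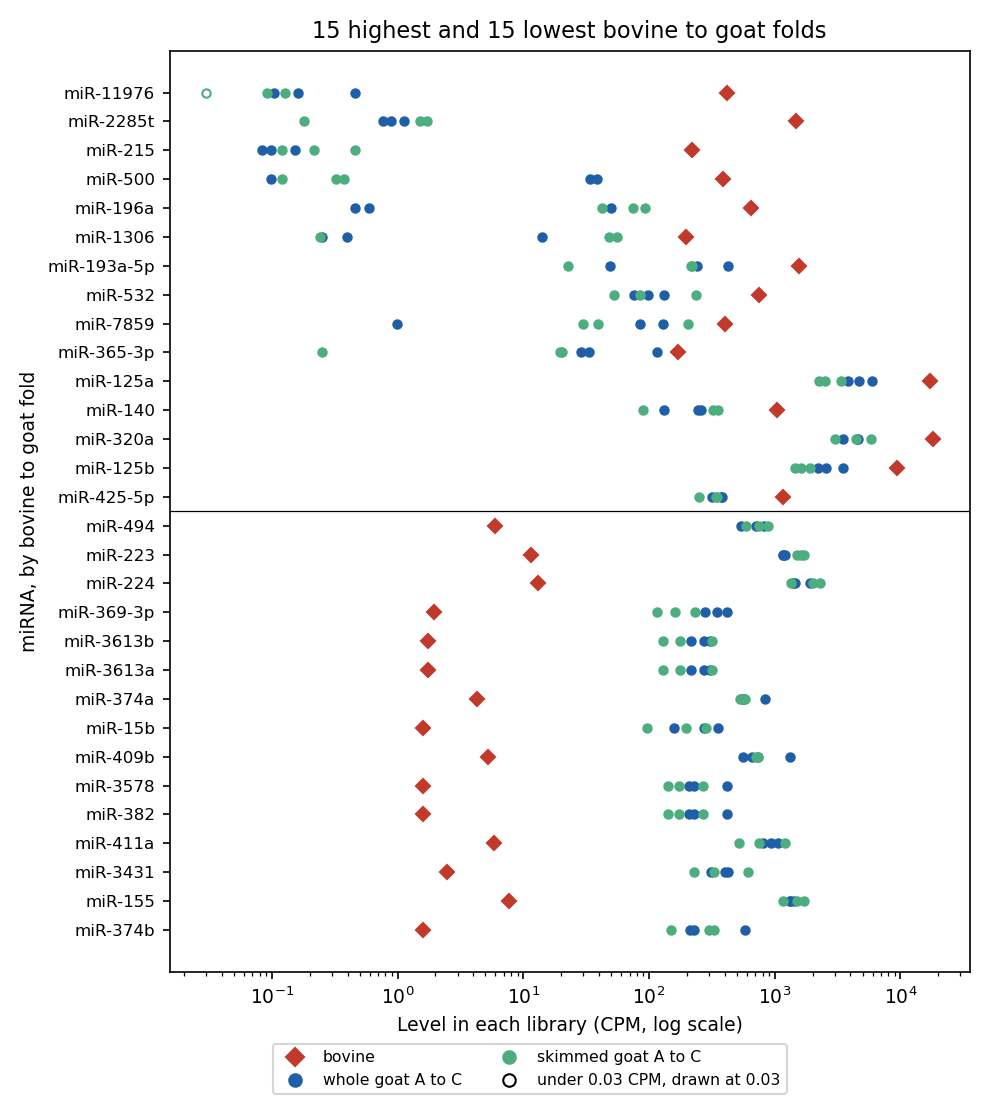
Level in each library (horizontal axis, CPM, log scale) of the 15 miRNAs with the highest fold (above the line) and the 15 with the lowest (below the line); red diamonds are the bovine library, blue points whole goat and green points skimmed goat libraries, and an open point marks a level under 0.03 CPM. In all 30 the bovine library lies outside the goat range, and for miR-500, miR-196a and miR-1306 the goat libraries themselves fall into a high and a near-absent group.

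The miR-17 to miR-92 list with its paralogs took 6.11% of bovine reads against 2.81% ± 0.427 in goat (range 2.20% to 3.42%), nearly all of it miR-92a. Of its 14 entries 5 averaged at least 100 CPM, of which 2 were higher, 1 was lower and 2 were neither, beside 20.0% higher and 37.6% lower over all 125. The leading member miR-92a was higher, at 58611 CPM in bovine and 18804, 22803 and 30897 CPM in goat, 2.45-fold over the mean, and so was miR-92b, at 268 CPM against 0.836, 91.7 and 172 CPM. From the miR-106b cluster in the MCM7 gene, miR-93 was lower at 45.6 CPM against 226, 453 and 693 CPM, miR-25 lay below the goat range at 1967 CPM against 2219 to 4599.6 CPM, and miR-106b lay within it. The entries under 100 CPM did not follow miR-92a: miR-17-5p, miR-18a, miR-19a, miR-20a and miR-106a had 1 to 3 bovine reads each and 3373, 1711, 572, 810 and 457 reads over the 6 goat libraries. Those goat reads were uneven, with all 572 of miR-19a in whole C, and of these 5 only miR-18a, at 1 bovine read and 2 or more in each goat library, lay below all 6. Of the miR-29 family, whose members repress collagen mRNAs, miR-29b was higher (2.60-fold) and miR-29a and miR-29c were neither. For miR-191 and miR-425, cut from 1 transcript, miR-425-5p was higher at 1169 CPM against 248, 344 and 384 CPM (3.48-fold), and miR-191 lay above the goat range at 1.22-fold.

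The ruminant miR-2284 and miR-2285 family has 59 entries in the tables, of which 2 averaged at least 100 CPM. Its summed level was 2008 CPM in bovine and 134 to 303 CPM in goat, 10.3-fold higher in bovine, and miR-2285t made up most of the bovine sum. Fewer members were seen in bovine, with at least 1 read for 8 entries against 12 to 17 in each goat library. These counts were not set to equal depth, and the bovine library was the shallowest. It also showed fewer miRNAs over the whole tables, 224 against 238 to 254 in goat. Whether the family's count was lower than depth and this general difference would give was not tested. Besides miR-2285t, the bovine library held 1053 reads of miR-2285ba, at 0 to 2 reads in each goat library, and 185 CPM of miR-2284x against 41.2 to 142 CPM in goat.

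The 47 miRNAs that were lower in bovine included 24 with more than 10-fold and 18 with more than 50-fold. These 18 formed a group of their own, from 69.6-fold to 189-fold lower, with no miRNA between them and miR-16b at 33.8-fold. In the bovine library they had 9 to 96 reads each. The group joined leukocyte miRNAs (miR-155 and miR-223), stromal ones (miR-143 and miR-10a), 6 of the imprinted DLK1-DIO3 region, and others (miR-15b, miR-224, miR-374a, miR-374b, miR-3431, the paired entries miR-3613a and miR-3613b, and miR-3578, whose reads were those of miR-382 in every library).

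The leukocyte list has 8 entries in the tables, and the 5 averaging at least 100 CPM were lower, beside 37.6% of all 125. Their median log2 fold was -4.66 beside -0.35 for all 125, and 4 of the 5 passed the rule under TMM and 3 under median of ratios. The list took 0.222% of bovine reads against 2.75% ± 0.193 in goat (range 2.43% to 2.97%), a summed level 12.4-fold lower in bovine. In goat most of the list was miR-146b, a brake on NF-kappaB signalling, at 2.09% of all reads. Its level was 828 CPM in bovine, where the list summed to 2221 CPM, and 18690.4, 21339.5 and 22721 CPM in goat, 25.2-fold lower. Lymphocyte and macrophage miR-155 was at 7.75 CPM (44 reads) against 1157, 1369 and 1711 CPM, a pooled ratio of 182 (95% interval 135 to 249.8). Myeloid miR-223 was at 11.5 CPM (65 reads) against 1154, 1357 and 1722 CPM, a pooled ratio of 119.9 (95% interval 94.1 to 155). For each of these 3 the bovine library lay far below the lowest goat library. Of them, miR-155 and miR-223 entered the 5 through goat, so a difference of at least 2-fold followed from the entry limit. Smaller differences were found for miR-342 (2.75-fold lower) and miR-142-5p (2.78-fold), whose call was lost under TMM. Lymphoid miR-150 had 0 bovine reads, which allows a level of up to 0.529 CPM, against 0 to 17.8 CPM in goat.

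Of the stromal and endothelial list, the 2 entries averaging at least 100 CPM, miR-143 and miR-10a, were lower as well. Both entered through goat, so a difference of at least 2-fold followed from the entry limit. Smooth muscle and fibroblast miR-143 was at 16.8 CPM (96 reads) in bovine and 1487, 1611 and 2441 CPM in goat, a pooled ratio of 103 (95% interval 84.7 to 128). The HOX cluster miRNA miR-10a was at 3.70 CPM against 16.5, 283 and 417 CPM. The list summed to 21.1 CPM in bovine and 1815 to 2672 CPM in goat, 98.7-fold lower in bovine. Most of the goat sum was miR-143. Endothelial miR-126-3p was at 0 in bovine and 0 to 43.6 CPM in goat, so it did not lie below all goat libraries. Other cell types that milk or blood could add were near 0 in bovine: the erythroid list, which had only miR-486 in the tables, was at 0.176 CPM in bovine and 15.6 to 72.8 CPM in goat, and the list of liver, muscle and nerve miRNAs summed to 1.88 CPM in bovine and 139 to 337 CPM in goat. The marker lists of non-epithelial cells thus lay below all goat libraries, while the epithelial list lay within their range. In vesicles from a mixed fluid, fewer vesicles from a cell type and less of a miRNA per vesicle cannot be told apart.

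The imprinted DLK1-DIO3 region, a large miRNA cluster transcribed from the maternal chromosome, has 37 entries in the tables. The 7 that averaged at least 100 CPM were lower, beside 37.6% of all 125, and the 7 calls held under the 3 other scalings. All 7 stood at 67.0 CPM or less in bovine and entered the count through goat. Their being lower thus followed largely from the entry limit, and the count does not set the region apart. The summed level was 107 CPM in bovine and 5071 to 5820.1 CPM in goat, 51.4-fold lower, with a median log2 fold of -7.06. Its most abundant members were miR-411a, at 5.81 CPM in bovine and 522, 869 and 1217 CPM in goat, and miR-379, at 9.16 against 423, 956 and 1022 CPM. They had 33 and 52 bovine reads, and their pooled ratios were 149 (95% interval 106 to 217) and 93.0 (95% interval 70.9 to 124). Further members with the same pattern were miR-494 (119.6-fold lower), miR-409b (149-fold), miR-382 (151-fold) and miR-369-3p (134-fold). The exception in size was miR-487b, which kept 380 bovine reads, 67.0 CPM against 306, 455 and 779.7 CPM in goat, 7.28-fold lower.

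The miR-15 and miR-16 family, known for repressing BCL2 and cell cycle genes, took 0.0743% of bovine reads against 1.95% ± 0.138 in goat (range 1.77% to 2.13%), 26.3-fold lower in bovine. Its miR-16a was at 458 CPM in bovine and 8813, 9740 and 10566 CPM in goat, and miR-16b at 283 and 8762, 9698 and 10507 CPM. In goat the 2 entries were nearly equal in every library, at 49.3% to 49.9% of the family's reads for miR-16a, while in bovine miR-16a held 61.6% and miR-16b 38.2%. How reads common to both entries were divided is not stated in the labels and was not tested, and the family's sum does not depend on it. Neighbouring miR-15b was 143-fold lower, with 9 bovine reads against 799 to 4211 in each goat library.

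Some abundant miRNAs of other families were lower too. The list of miR-23, miR-24 and miR-27 had 4 members averaging at least 100 CPM, of which 2 were lower and 2 were neither, beside 37.6% lower over all 125; so small a count does not set the list apart. From the miR-23a cluster, miR-27a-3p was at 51.6 CPM in bovine and 735, 1158 and 1614 CPM in goat, 23.3-fold lower, while miR-23a, cut from the same transcript, was 1.95-fold lower and did not pass the rule. Metabolic miR-103, which lies in introns of the pantothenate kinase genes, was at 2355 CPM against 6017, 7633 and 9631 CPM. The lymphocyte-rich miR-181a was at 1387 CPM against 4024, 4312 and 4886 CPM, and miR-224, from an intron of the GABA receptor gene GABRE, had 74 reads in bovine and 10818 to 21200 in each goat library. Among these the calls of miR-103 and miR-181a were lost under median of ratios, with log2 folds of -0.59 and -0.55.

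**Figure D4:**
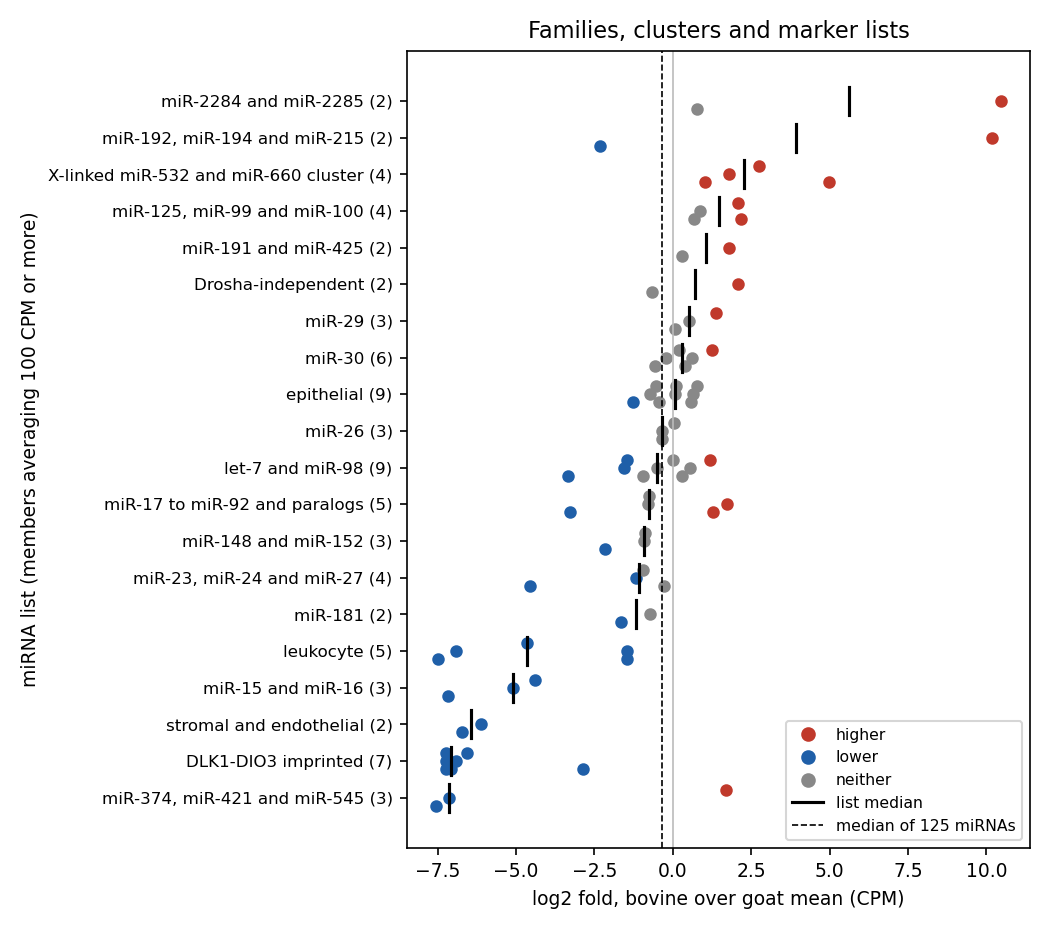
Log2 fold of the bovine library over the goat mean (horizontal axis, CPM scale) for the members averaging at least 100 CPM of each miRNA list with at least 2 such members (their number in parentheses); red points are higher, blue lower and grey neither, black bars are list medians and the dashed line is the median of the 125 miRNAs. The leukocyte, stromal, miR-15 and miR-16, and DLK1-DIO3 lists hold only lower members, the X-linked list only higher ones, and the epithelial, miR-26 and miR-30 lists sit near the dashed line or 0. Members under 100 CPM in bovine entered through goat and so had to lie left of 0. These include all members drawn for the stromal and DLK1-DIO3 lists, and miR-15b, miR-155 and miR-223. Members with a goat mean under 100 CPM entered through bovine and so had to lie right of 0. Among them are miR-500, miR-215, miR-2285t and miR-421.

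Some miRNAs differed little. The abundant ones nearest to a ratio of 1 were let-7a-5p (1.01), miR-151-5p (1.02), miR-26b (1.03), miR-200b (1.05) and miR-29a (1.06), of which miR-200b lay just above the goat range and the other 4 inside it. The miR-26 family held 3 members and 0 passed the rule, although miR-26b passed as higher under median of ratios. The widely expressed miR-21-5p, often named among milk miRNAs, was at 52139.9 CPM in bovine and 42799, 61044 and 72022 CPM in goat, inside the goat range. A list of 13 entries often named in connection with milk and immunity took 27.8% of bovine reads against 31.9% ± 1.42 in goat (range 29.6% to 33.6%). Of its 11 members averaging at least 100 CPM, 0 were higher and 4 were lower (miR-146b, miR-223, miR-375 and miR-22-3p), a share of lower ones near the 37.6% of all 125, and the direction of its sum turned under TMM and median of ratios. At the limit of 2-fold, miR-660 (2.03) and miR-1343-3p (2.17) stood just inside and miR-885 (1.97) and miR-374c (1.91) just outside. On the lower side miR-151-3p (0.479) and miR-24-3p (0.440) stood just inside and miR-23a (0.513) and let-7g (0.523) just outside.

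Ratios within a library do not depend on its scaling, and they differed between the bovine and the goat libraries too. Both arms of a hairpin had at least 10 reads in every library for 2 miRNAs. The log2 ratio of miR-423-5p to miR-423-3p was 1.89 in bovine and 0.84 to 1.48 in goat. That of miR-151-5p to miR-151-3p was 1.17 in bovine and -0.16 to 0.37 in goat. In both the bovine library lay above all 6 goat libraries.

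Neighbouring miRNA genes, which are often cut from a shared transcript, were compared by the goat annotation of assembly ARS1.2, used only for which genes lie within 10 kb of each other. It placed 18 clusters with at least 2 of the 125 miRNAs. In 6 the members' folds lay within 2-fold of each other, as for miR-429, miR-200a and miR-200b, miR-182 and miR-183, or miR-30c and miR-30e-5p. In 8 they lay at least 4-fold apart, and in 2 the calls were opposite. The first of these joined miR-215, higher, and miR-194, which was lower at 77.9 CPM against 249, 339.9 and 701 CPM. The related miR-192, which shares its seed with miR-215, was also low in bovine, with 6 reads against 570 to 2008 in each goat library. The second joined miR-374b, with 9 bovine reads against 1186 to 5916 in each goat library, and miR-421, which was higher at 169 CPM against 0.418, 59.7 and 92.6 CPM. The related entry miR-374c stood at 148 CPM in bovine and 26.7, 70.5 and 123 CPM in goat, above the goat range. All tables name miRNAs by bovine entries, and no source used here says how goat reads that differ from a bovine entry were counted; its part in such pairs was not tested.

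Near-absent miRNAs stood at a similar level in every library. Each library was set against the mean of the other 6 for the miRNAs whose mean there was at least 20 CPM. Values fell into a main group near equality and a separate low group, with few between. In the bovine library 66 of 185 miRNAs (35.7%) were above 0 but under 1/32 of the others, 6 were between 1/32 and 1/8, and 106 were at 1/8 or more. In the goat libraries 11 to 19 miRNAs (5.76% to 10%) were in the low group and 0 to 4 between. The median level of the low group was 0.745% of the others' mean in bovine and 0.458% to 0.760% in goat. The bovine library thus had more low miRNAs than any goat library, at a median level inside the range of the goat libraries. The numbers are not like for like. For bovine the other 6 were all goat, while for a goat library they included the bovine one. A miRNA present in all goat libraries could be low only in bovine. A miRNA found in bovine alone had to reach the 20 CPM mean through 1 library. The larger number in bovine follows in part from this design. Its 18 lowest miRNAs named above stood at 0.529% to 1.44% of their goat mean. In the other direction, miR-2285t, miR-11976, miR-215 and miR-2285ba stood in goat libraries at 0 to 1.26% of the others' mean. Whether such reads belonged to the library or came from another library of the run was not tested. Counted in reads, 22 miRNAs reached 100 in all 6 goat libraries but did not pass 10 in bovine, and 9 reached 100 in bovine but did not pass 10 in any goat library.

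**Figure D5:**
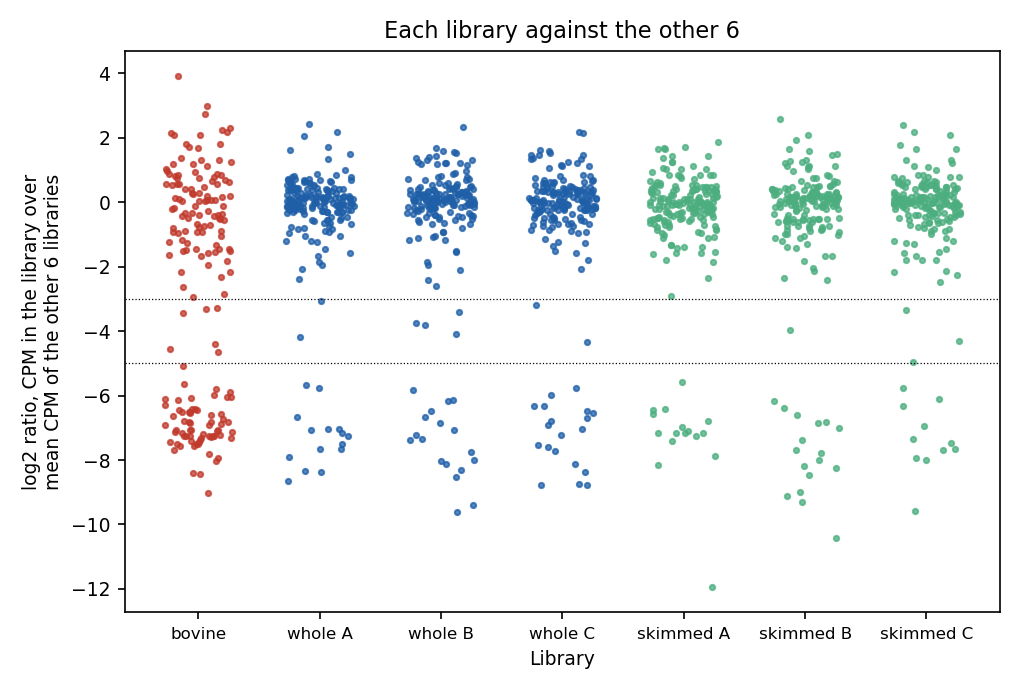
Log2 ratio of each miRNA's CPM in a library to its mean CPM in the other 6 (vertical axis), for every library (horizontal axis; points are miRNAs averaging at least 20 CPM in the other 6, spread sideways at random, and values of 0 are not drawn). Dotted lines mark 1/8 and 1/32. Every library has a low group under the lower line, and it is largest in bovine, with 66 miRNAs. For bovine the other 6 are all goat, while for a goat library they include the bovine one.

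A miRNA near absent from one species entered the 125 through the other and so had to differ. Among the 96 of them with at least 100 reads in each of the 7 libraries, a selection made after the near-absent ones had been seen, 15 were higher and 29 lower, with a median log2 fold of -0.20. The largest difference was then 7.91-fold upward, for miR-193a-5p, and 33.8-fold downward, for miR-16b. The higher ones there included let-7b, miR-92a, miR-125a, miR-125b and miR-320a, and the lower ones miR-146b, miR-16a, miR-16b and let-7i.

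The goat powders themselves differed in part, which bears on the goat range. For 29 of the 125 miRNAs the 3 whole and 3 skimmed libraries did not overlap, and the bovine level was nearer to the whole mean in 19 and to the skimmed mean in 10. Examples nearer to whole were miR-30a-5p, miR-125a, miR-125b and miR-885, all higher in whole than in skimmed powder and higher still in bovine. Over all 125 the numbers were 65 and 60. Against whole powder alone 24 miRNAs were higher and 50 lower, and against skimmed powder alone 28 were higher and 43 lower.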

How the data were processed

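Small RNA was sequenced from milk powder vesicles: 1 bovine and 6 goat libraries. Per the labels' protocols, powders were reconstituted in warm water, vesicles were isolated by size exclusion, RNA was extracted with a mirVana kit, and size-selected libraries were read as single 50-base reads. The deposited tables give estimated counts per mature miRNA under bovine names, as the authors made them: values need not be whole, and 36.9% to 46.7% were whole (tolerance 1e-06). No source used here states the aligner, the counting tool, the miRNA reference or the genome build. All 364 entries and all columns were used.

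Levels were computed here as counts-per-million of each library's total, and the bovine level was set against the mean and range of the 6 goat libraries. No test of bovine against goat, p-value or standard error was computed, since bovine had 1 library. Dixon's limit served only to flag goat libraries that stood apart. For scaling factors only, edgeR 4.0.16 (TMM) and DESeq2 1.42.0 (median of ratios) were used in R 4.3.3, and the rest ran in Python 3.11.15. Estimated counts were rounded for 95% exact Poisson and binomial intervals, which cover counting error only. At these depths (5675489 to 11963849 reads) a count of 0 allows up to 3 counts. Every pair of goat libraries differed by far more than counting noise (a chi-square of 497 to 3481 for each degree of freedom), and each was counted as a library of its own.

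The miRNAs named are the 10 highest in bovine, the 15 highest and 15 lowest folds outside the goat range among those averaging at least 100 CPM, the 5 nearest to a ratio of 1 at 1000 CPM or more, up to 6 members per list at 1000 CPM or more, their cluster or arm partners, and 2 on each side of the 2-fold limits. Others named, such as near-absent miRNAs, were chosen after their values were seen. The 25 lists and the comparison were chosen with earlier results of these data known. The goat annotation ARS1.2 (RefSeq) gave neighbours only: 180 of its 264 miRNA genes were matched by name, to 195 entries. Mature sequences were not used here, so near-identical names were recognised by constant ratios alone. The comparison was tested on simulated data with folds planted in well-covered miRNAs, under the same modest spread for every miRNA. It recovered all or nearly all of them. Such data do not cover miRNAs that vary widely among goat libraries. Strong gains lower the CPM of unchanged miRNAs by construction, a property of scaling to totals. Alternatives covered scaling, filters, fold limits, the goat centre, powder type and each goat library left out.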

Additional observations from a re-analysis of the deposited data

Results flagged for a closer look

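Among the 6 goat libraries of each of 88 named miRNAs, 11 had 1 library whose gap to its nearest neighbour, as a share of the whole range, exceeded Dixon's 95% value. That value is set so that about 1 in 20 groups of independent, normally distributed values pass it. These groups join whole and skimmed powder and include linked names, so the rate is only a rough guide. The highest library stood apart for 8 of them. Whole A led for miR-11976 (0.457 CPM, next 0.161 CPM) and miR-374a (838 CPM, next 576 CPM). Whole B led for miR-409b, at 1325 CPM with the next at 741 CPM. Whole C led for miR-365-3p (115 CPM, next 33.5 CPM), miR-429 (1055 CPM, next 795 CPM) and miR-183 (2023 CPM, next 996 CPM). Skimmed C led for miR-215 (0.461 CPM, next 0.215 CPM) and let-7i (6411 CPM, next 5107 CPM). The lowest library stood apart for miR-30e-5p in skimmed A (2823 CPM, next 4495 CPM), miR-379 in whole B (423 CPM, next 830.4 CPM) and let-7d in skimmed C (1029.9 CPM, next 1522 CPM). The values of miR-11976 and miR-215 rest on 0 to 4 reads per goat library. In miR-365-3p the bovine level stayed above the outlying library, and in miR-374a, miR-409b, let-7i and miR-379 it stayed below every goat library.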

How the results depend on the processing

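No paired analysis was possible because bovine had 1 library that shares no replicate number with goat, and the result comes from no test. Against 25 higher and 47 lower miRNAs, TMM gave 40 and 42, median of ratios 61 and 30, totals without let-7a-5p and let-7b 29 and 47, and centring on the median miRNA, added after seeing the data, 32 and 45. Filters gave 35 and 81 at 10 CPM, 7 and 14 at 1000 CPM, 57 and 89 with no filter, and 15 and 29 with at least 100 reads in each library, added after seeing the data; the number of miRNAs read changes with each by construction. A limit of 1.5-fold gave 36 and 56, and 4-fold gave 14 and 31. The goat median gave 26 and 47, whole powder alone 24 and 50, skimmed alone 28 and 43, and linked names counted once 25 and 44. Leaving out each goat library gave 24 to 27 higher and 47 to 48 lower. The bovine library had 23.5 fewer detected miRNAs than the goat mean (difference -23.5; -25.4 to -22.2 leaving out each goat library), -16.6 at equal depth and -57.8 at 10 reads or more. The share of the 10 leading miRNAs was 7.17 points above goat (6.63 to 7.38 leaving out each goat library). Of 88 named miRNAs and 25 lists, 1 called value reversed: miR-151-3p, with a log2 fold of 0.026 under median of ratios; the cause was not tested. Over the 12 alternatives applied to them, 1157 values stayed within 1 SD of the goat libraries and 198 moved further, 196 of those by scaling. Depth limits statements on near-absent miRNAs, where a few reads set the fold, and 1 bovine library limits all others.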

Other observations

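Some miRNAs that averaged under 100 CPM, and so stood outside the 125, were near absent from 1 side. In the bovine library miR-11978 had 544 reads, miR-2467-5p 381, miR-12023 357, miR-3432a 313 and miR-11975 211, and no goat library passed 1 rounded read of any of them. The entry miR-1260b had 679 bovine reads and 9, 18 and 14 reads in whole A to C and 85, 74 and 42 in skimmed A to C, so that it was low but present in every goat library. In the other direction, miR-146a, a relative of miR-146b with the same role in NF-kappaB signalling, had 5 bovine reads and 266 to 778 in each goat library. Muscle-linked miR-499, from an intron of a myosin heavy chain gene, had 8 bovine reads and 227 to 1877 in goat. Of the DLK1-DIO3 region, miR-127 had 8 bovine reads against 350 to 2037 and miR-655 had 6 against 825 to 2911. The passenger arm let-7a-3p had 3 bovine reads against 148 to 1706, while its partner let-7a-5p was level between the bovine and goat libraries. These names were chosen after their values were seen, and no fold is given for them since a few reads set it.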
